A study of Mus musculus with 37 samples.

Results

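Cholesterol is made in the liver from acetyl-CoA through acetoacetyl-CoA, HMG-CoA, mevalonate, farnesyl diphosphate, squalene and lanosterol. The transcription factor SREBP2, encoded by Srebf2, drives the genes of this route when membrane sterol is scarce. Its precursor is escorted out of the endoplasmic reticulum by the protein of Scap, and the sterol-sensing proteins of Insig1 and Insig2 hold that complex back when sterol is plentiful. In mouse liver Insig1 is itself induced by SREBP, whereas Insig2 has a liver transcript known to be repressed by insulin and raised in fasting. The 28 genes described here are the enzymes of the route, SREBP2 with its regulators, and further SREBP-responsive genes, picked by symbol from a table of 55487 genes. Each of the 28 was present once, and each passed the filter on low counts that left 15564 genes for testing.

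RNA was sequenced from 37 frozen livers of mice labelled WT (18 libraries) or NOX4-/- (19 libraries, knockout, KO below). Nox4 encodes an NADPH oxidase that releases hydrogen peroxide. The mice had a partial hepatectomy, in which most of the liver mass is cut away and the remnant regrows, or a sham operation, and the study asks whether loss of Nox4 alters that regrowth. WT livers comprised 5 sham, 3 at 6 h, 3 at 24 h, 4 at 48 h and 3 at 7 d after hepatectomy, and KO livers comprised 5 sham, 3 at 6 h, 4 at 24 h, 4 at 48 h and 3 at 7 d. The sham livers of a genotype formed 1 group although their times were mixed. WT sham replicates 1 to 5 were taken at 7 d, 48 h, 24 h, 48 h and 6 h, and KO sham replicates 1 to 5 at 24 h, 48 h, 48 h, 72 h and 6 h. The 6 hepatectomy livers at 6 h were all male and every other group held both sexes. Strain, age, feeding, time of day and the cells in which Nox4 was deleted are not given in the labels. No label says that 2 libraries came from different animals, so p-values measure the spread between these libraries. Replicate numbers were assigned here in accession order, only to name the libraries of a group, and values are given in that order.

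Total counts ran from 26232544 to 48827025 per library. As a check of the labels, Nox4 ranged from 3.95 to 23.5 CPM (counts scaled to the size of the library) in 11 WT males and from 0.325 to 4.98 CPM in 12 KO males. In females it ranged from 0.778 to 3.36 CPM in 7 WT livers and from 0 to 0.245 CPM in 7 KO livers. The Nox4 log2 difference, KO minus WT averaged over the 5 stages, was -2.82 (SE 0.28, edgeR adjusted p = 4.27e-08). The summed level of 6 hepatocyte markers (Alb, Apoa1, Ttr, Serpina1a, Cps1 and Tat) was 38825 to 147763 CPM, and none of them was at 0 in every library of a group, so the label liver was met. These are whole-tissue libraries, in which fewer cells of a type and less RNA per cell cannot be told apart.

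The sequences just upstream of the members are shown because SREBP2 acts on such sequences together with the CCAAT-binding factor NF-Y, and because several of these genes moved together at 24 h in the KO. RefSeq promoters (build GRCm38.p6) were found for 23 of the 28 members, in 29 windows. In the 250 bases before the start, CCAAT on either strand was present for 19 of the 23 members and in 65.5% of the 29 windows, against 33.8% of 32851 promoters of the same length. A strict sterol regulatory element, TCACNCCAC on either strand, was found in 1 window, that of Hmgcs1 (3.45% of the windows, against 1.05% of all promoters). The E-box CACGTG was found in 5 windows (17.2%, against 6.02%). No 2 of these motifs overlap in letters in the windows printed here. The windows below are all those of members called at 24 h in the KO that hold no annotated exon, a choice made after the calls were known. They run 5′ to 3′ on the strand of the gene, and carry the TCACNCCAC and CCAAT matches of either strand in capitals. Hmgcs1 (HMG-CoA synthase) is at chr13:119690101-119690350 on the plus strand, with its TCACNCCAC match 137 bases before the start.
Hmgcs1: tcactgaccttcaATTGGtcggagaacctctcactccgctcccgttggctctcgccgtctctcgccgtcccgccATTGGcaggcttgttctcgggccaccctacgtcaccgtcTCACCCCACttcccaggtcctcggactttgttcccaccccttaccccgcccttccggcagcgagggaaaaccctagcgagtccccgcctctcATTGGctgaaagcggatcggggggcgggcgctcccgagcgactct
Pmvk (phosphomevalonate kinase) is at chr3:89454291-89454540 on the plus strand.
Pmvk: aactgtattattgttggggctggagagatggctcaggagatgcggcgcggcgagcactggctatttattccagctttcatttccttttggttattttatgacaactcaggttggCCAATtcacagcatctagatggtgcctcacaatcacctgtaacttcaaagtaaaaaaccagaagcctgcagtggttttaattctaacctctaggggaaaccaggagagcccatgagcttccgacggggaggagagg
Ebp (the sterol isomerase of the late route) is at chrX:8193513-8193762 on the minus strand.
Ebp: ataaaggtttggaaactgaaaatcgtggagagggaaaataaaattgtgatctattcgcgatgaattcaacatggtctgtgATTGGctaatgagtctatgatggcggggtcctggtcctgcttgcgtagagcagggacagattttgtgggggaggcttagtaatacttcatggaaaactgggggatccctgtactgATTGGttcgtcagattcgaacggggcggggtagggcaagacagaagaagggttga
Sc5d (lathosterol oxidase) is at chr9:42264301-42264550 on the minus strand.
Sc5d: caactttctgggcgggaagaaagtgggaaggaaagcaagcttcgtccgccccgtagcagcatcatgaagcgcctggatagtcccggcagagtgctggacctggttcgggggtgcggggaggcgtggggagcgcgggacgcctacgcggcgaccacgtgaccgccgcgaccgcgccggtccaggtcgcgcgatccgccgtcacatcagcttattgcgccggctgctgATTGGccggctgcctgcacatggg
Insig2 is at chr1:121332590-121332839 on the minus strand.
Insig2: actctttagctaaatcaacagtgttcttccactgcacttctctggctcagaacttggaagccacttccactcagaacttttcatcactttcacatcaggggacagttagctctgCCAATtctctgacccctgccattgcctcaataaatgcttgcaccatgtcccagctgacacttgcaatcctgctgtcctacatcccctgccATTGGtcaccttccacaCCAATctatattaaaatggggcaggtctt
In these windows Hmgcs1 and Insig2 carry 3 CCAAT matches each, Ebp carries 2, and Pmvk and Sc5d carry 1 each. The other windows of Insig2 and Pmvk carry 0, as do those of Acat2, Aacs and Fads2, which also fell at 24 h in the KO. A match is a description of these letters, and binding was not measured.

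Levels per length differed widely within the group. In WT sham livers, dividing CPM by exon length in kb, the fatty acid desaturases Fads2 (280 ± 42.9, SD, n = 5) and Fads1 (139 ± 20.9, SD, n = 5) were the most abundant. Ebp (115 ± 25.4, SD, n = 5), the farnesyl diphosphate synthase gene Fdps (99.6 ± 60.6, SD, n = 5) and Insig1 (86.2 ± 49.6, SD, n = 5) followed, and these 3 did not differ beyond their spread. At the low end stood Mylip, an E3 ubiquitin ligase of lipoprotein uptake (1.64 ± 0.593 CPM per kb, SD, n = 5), and the lamin B receptor gene Lbr, whose protein also reduces the sterol ring (1.36 ± 0.19 CPM per kb, SD, n = 5). Srebf2 itself stood at 7.77 ± 1.07 CPM per kb (SD, n = 5). Annotated genes overlap Fdft1, Cyp51, Lbr, Hmgcs1, Idi1, Lss and Scap on the opposite strand and Tm7sf2, Fdps and Lbr on the same strand, and how the deposited counts treated strand is not given in the sources used here, so these levels are less certain.

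The summary that follows each library through the set is the median over the 28 members of log2 CPM minus the WT sham mean. It was -0.65 to 0.59 in WT sham livers and -0.70 to 0.73 in KO sham livers, in both cases with the 6 h sham liver lowest. WT livers at 6 h lay at -1, -0.69 and -0.75, below every WT sham liver. KO livers at 24 h lay at -0.27, -1.98, -1.31 and -1.47 for replicates 1 to 4, and replicates 2 to 4 were below the other 34 libraries. At 7 d the range was -0.45 to -0.08 in the WT and -0.21 to 0.27 in the KO, inside the sham ranges. Libraries that stood apart from their group were KO 24 h replicate 1, WT 48 h replicate 3 (1.08, the highest of the 37), the 6 h sham livers, WT 24 h replicate 3 (-1.04), KO 48 h replicate 4 (-1.05) and KO 6 h replicate 2 (-1.22).

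**Figure D1:**
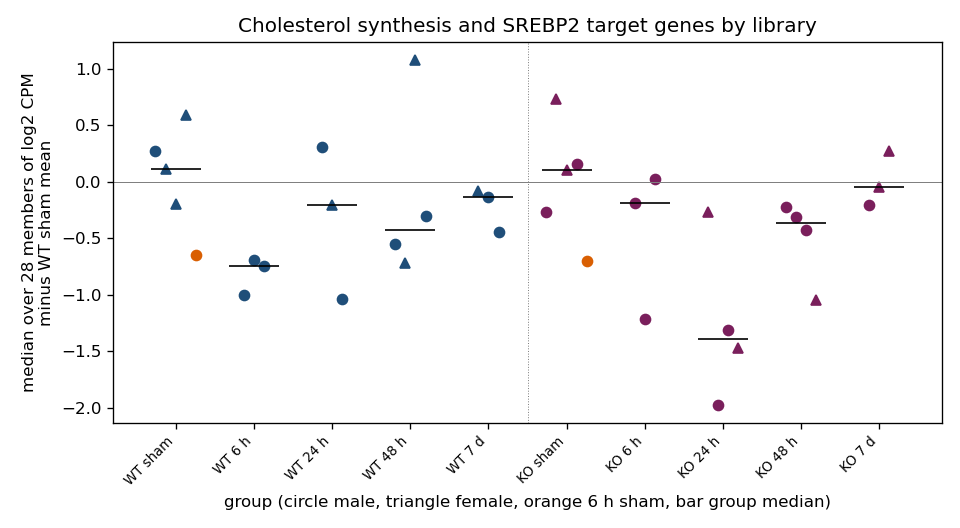
Median over the 28 members of log2 CPM minus the WT sham mean (vertical axis) for each of the 37 libraries, by group; circles are males, triangles females, orange points the 6 h sham livers and bars group medians. KO 24 h replicates 2 to 4 sit between -1.98 and -1.31, and replicate 1 of that group sits at -0.27.

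The heat map of all members by library shows the same order gene by gene. KO 24 h replicates 2 to 4 had 26, 23 and 25 members below the WT sham mean, and Insig2 runs against them as a red row. Counts of 24 and 25 were also reached in the WT livers at 6 h, where the members lay less far below that mean. Single livers of other groups reached them too. KO sham replicate 5, a sham liver, and WT 48 h replicate 1 had 25. WT 7 d replicate 3 and KO 6 h replicate 2 had 24.

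**Figure D2:**
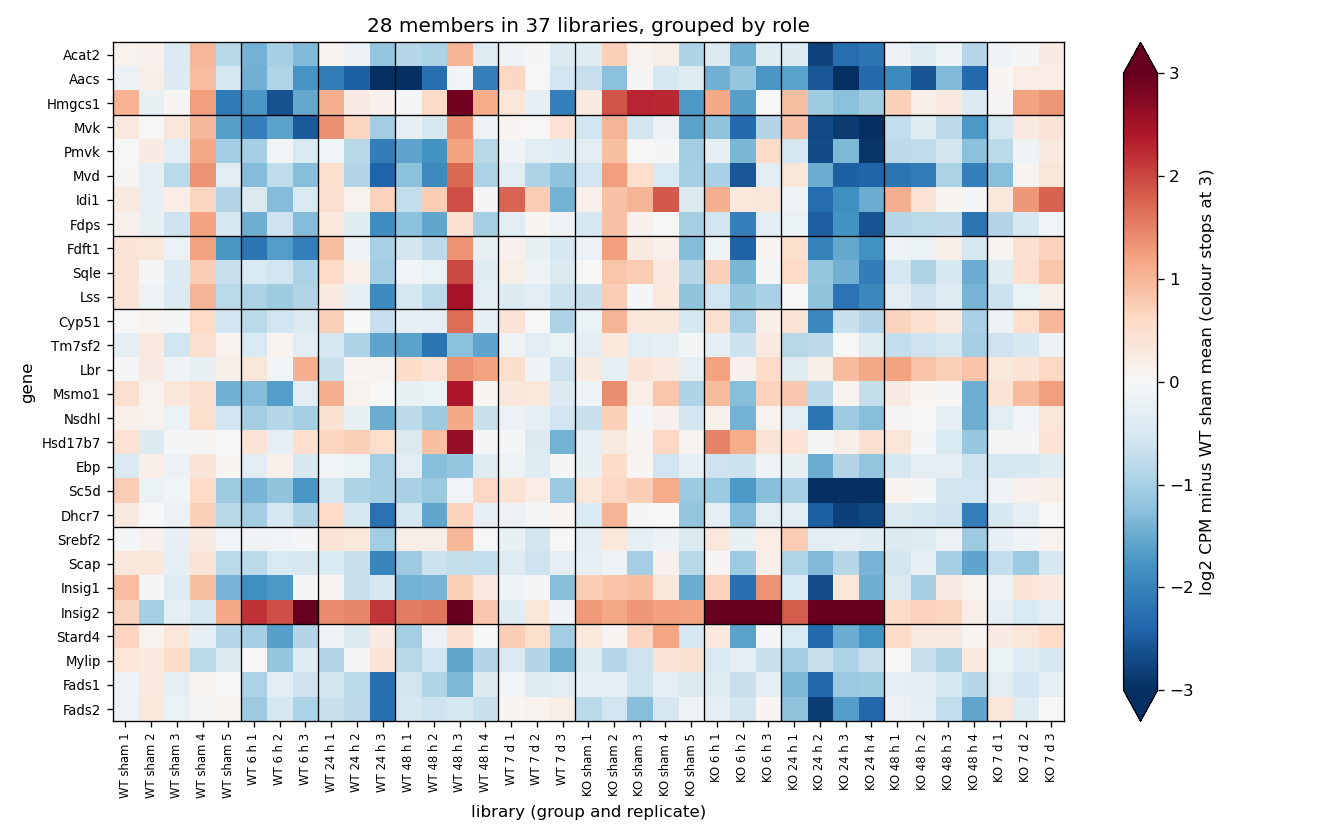
Log2 CPM minus the WT sham mean for each of the 28 members (rows, in the order of the route, then the regulators and other targets) in each library (columns); colour stops at 3 in either direction. Insig2 is red and Sc5d deep blue in KO 24 h replicates 2 to 4, and WT 48 h replicate 3 is red for most of the enzymes.

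The largest movement was at 24 h in the KO. Against KO sham, 13 of the 28 members fell and 1 rose. The background for these calls was 12.0% of all 15564 tested genes lower and 15.9% higher. By edgeR, 20 of the 28 had an unadjusted p under 0.05, as did 6342 of all tested genes. A negative log2 change was found for 24 of the 28 and for 50.6% of all genes. The median log2 change of the members was -1.11, against -0.01 over all genes tested. By step of the route, all 3 genes of acetoacetyl-CoA and HMG-CoA formation were called lower, and 3 of 5 from mevalonate to farnesyl diphosphate. From squalene to lanosterol 0 of 3 were called, from lanosterol to cholesterol 4 of 9, and of the other targets 3 of 4. The median log2 changes in this order were -1.92, -1.5, -1.13, -0.82 and -1.12. The 3 genes from squalene to lanosterol changed by -1.16 to -1.07, with unadjusted edgeR p of 0.03 to 0.0377. Without KO 24 h replicate 1, 21 members passed (19 lower and 2 higher). Without replicate 2 or without replicate 4 there were 8, and without KO sham replicate 2 there were 9. The share of all genes called in these fits is not given here, so a change in the whole call rate cannot be told apart.

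Replicate 1 of the KO 24 h livers was unlike the other three. Of the 13 members that fell, 11 lay inside the KO sham range in replicate 1, whereas 12 lay below it in each of replicates 2, 3 and 4. The 13 were picked on these same libraries. Over all 28 members, 5, 20, 19 and 20 lay below the KO sham range in replicates 1 to 4. These counts were not made over all genes. Relative to the KO sham mean, Sc5d stood at 35.5% in replicate 1 and at 6.77% in the mean of replicates 2 to 4. For Dhcr7, the last reductase of the route, the same values were 78.2% and 15.5%, and for Fdps 85.1% and 20.7%. Fads1 did not show this split, at 50.8% and 49.2%. Replicates 1 and 4 were female and replicates 2 and 3 male.

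Markers of other cell types also moved in this comparison. Of 6 Kupffer cell markers 5 fell, and their summed level was 235, 46.6, 55.8 and 91.6 CPM in KO 24 h replicates 1 to 4, against 183 to 282 CPM in KO sham livers, so replicate 1 again lay within the sham range. Of 6 sinusoidal endothelial markers 5 fell and 1, Lyve1, rose, with a summed level of 40.1 to 59.9 CPM against 67.0 to 128 CPM. Of 5 T and NK cell markers 4 fell (all 5 summed, 0.622 to 2.07 CPM against 1.39 to 7.60 CPM). Of 5 cholangiocyte markers 1, Sox9, rose (all 5 summed, 18.9 to 157 CPM against 14.7 to 45.5 CPM). Of 5 stellate markers 0 passed (all 5 summed, 89.6 to 194 CPM against 83.0 to 161 CPM). Of 4 tested neutrophil markers 0 passed (5 listed and summed, 2.53 to 11.9 CPM against 2.04 to 7.4 CPM). Of 6 hepatocyte markers 1, Tat, rose, and their sum was 86508 to 147763 CPM against 96276 to 123917 CPM in sham. No marker of these lists was at 0 in every library of a group. The part of these shifts in the results for the cholesterol genes was not tested.

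Among the early enzymes, Aacs, which makes acetoacetyl-CoA from acetoacetate in the cytosol, was the one called most often. It lies on chromosome 5 (125475814 to 125517410, plus strand). Aacs levels in the WT, in CPM, were 79.9, 102, 68.5, 173 and 62.7 in sham, 33.6, 48.3 and 26.3 at 6 h, 21.2, 16.6 and 5.93 at 24 h, 8.52, 18.7, 85.1 and 21.8 at 48 h, and 139, 90.5 and 61 at 7 d. KO levels of Aacs were, in CPM, 55.8, 37.7, 92.9, 63.2 and 70 in sham, 33.6, 40.4 and 27 at 6 h, 29.5, 15.3, 11.4 and 17.8 at 24 h, 24.3, 15.1, 36.2 and 18 at 48 h, and 95, 106 and 106 at 7 d. All 7 hepatectomy livers at 24 h lay below every sham liver of both genotypes. Within a genotype, all 24 h livers lay below all sham livers for 3.09% of tested genes in the WT and 4.7% in the KO. At 7 d the 3 KO livers lay above every KO sham liver (log2 change 0.52, SE 0.45, adjusted p = 1), as held for 3.21% of all tested genes. Aacs fell at 24 h in both genotypes, with a log2 change of -2.55 in the WT (SE 0.51, edgeR adjusted p = 0.0171) and -1.92 in the KO (SE 0.44, adjusted p = 0.00193), and at 48 h in the WT (-1.58, SE 0.43, adjusted p = 0.0194). The genotypes were not shown to differ in this change (interaction 0.63, SE 0.63, adjusted p = 0.537). The WT call at 24 h was lost without WT 24 h replicate 3, the library with a mitochondrial share of 8.93% of counts and a scaling factor of 1.31. That call was also lost in males alone and in a fit of these groups alone. The WT call at 48 h was lost without WT sham replicate 4 or WT 48 h replicate 1 or 2, and in a fit of these groups alone.

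Hmgcs1, which condenses acetoacetyl-CoA to HMG-CoA, varied most among sham livers, 15.9-fold in the KO (25.6 to 408 CPM). At 24 h in the KO it stood at 157, 39.9, 35.3 and 40.6 CPM, and its log2 change from sham was -2.00 (SE 0.68, adjusted p = 0.0284), a call lost in 7 of 16 alternatives. Acat2, the cytosolic thiolase that joins acetyl-CoA units, fell by 1.76 on the log2 scale (SE 0.41, edgeR adjusted p = 0.00206), from 84.4 ± 34.4 CPM (SD, n = 5) to 27.2 ± 22.9 CPM (SD, n = 4). All alternatives kept the Acat2 call.

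In the mevalonate segment, Idi1, which interconverts isopentenyl and dimethylallyl diphosphate, was the one member whose change from sham differed between the genotypes past the threshold. It lies on chromosome 13 (GRCm38, 8885501 to 8892451, plus strand). Idi1 levels in the WT, in CPM, were 74.7, 52.7, 72.2, 96.8 and 33.9 in sham, 46.2, 25 and 45.1 at 6 h, 86.4, 66.6 and 101 at 24 h, 37.4, 103, 239 and 60.2 at 48 h, and 207, 104 and 23.4 at 7 d. KO levels of Idi1 were, in CPM, 69.2, 114, 126, 224 and 47.1 in sham, 133, 77.6 and 78.6 at 6 h, 57.6, 12.4, 17.2 and 22.1 at 24 h, 132, 84.5, 64.2 and 59.2 at 48 h, and 77.6, 154 and 212 at 7 d. At 24 h the 4 KO livers all lay below the 3 WT livers, as held for 5.08% of all tested genes. The log2 change from sham at 24 h was -2.33 in the KO (SE 0.52, edgeR adjusted p = 0.00148) and 0.66 in the WT (SE 0.52, adjusted p = 0.581). The difference between those changes, the interaction, was -2.99 (SE 0.73, adjusted p = 0.0147), and Idi1 was the only one of the 28 members past the threshold there. In that interaction 2.96% of all tested genes were lower. The Idi1 interaction did not pass without WT 24 h replicate 3, without the sex term, or in a fit of the compared groups alone. Without KO 24 h replicate 1, 8 members passed, all lower.

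Fdps fell at 24 h in the KO by 1.5 on the log2 scale (SE 0.5, edgeR adjusted p = 0.0259) and Pmvk by 1.60 (SE 0.52, adjusted p = 0.0227). The first kinase, Mvk, stood at 45.7, 3.81, 3.37 and 3.14 CPM in the 4 KO livers at 24 h, against 8.23 to 51.0 CPM in KO sham, and its log2 change of -0.97 did not pass (SE 0.61, adjusted p = 0.23). The decarboxylase gene Mvd was also short of the threshold (log2 change -1.26, SE 0.62, adjusted p = 0.126).

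None of the 3 genes from squalene to lanosterol passed in any of the 19 comparisons, and their libraries show a wide spread within groups. Fdft1 encodes squalene synthase. Fdft1 levels in the WT, in CPM, were 154, 152, 103, 277 and 35.1 in sham, 25.8, 36.8 and 28.7 at 6 h, 221, 106 and 60.6 at 24 h, 80.6, 68.4, 301 and 102 at 48 h, and 129, 102 and 85.7 at 7 d. KO levels of Fdft1 were, in CPM, 104, 278, 142, 132 and 48.4 in sham, 108, 21.9 and 124 at 6 h, 171, 29.1, 40.6 and 33.5 at 24 h, 106, 103, 137 and 82 at 48 h, and 125, 163 and 192 at 7 d. The 6 h WT livers were all near the WT sham liver taken at 6 h and below the other WT sham livers. The smallest p of Fdft1 was that of the WT at 6 h (log2 change -1.73, SE 0.62, adjusted p = 0.0793). At 24 h in the KO its log2 change was -1.16 (SE 0.53, edgeR adjusted p = 0.0946).

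Sqle encodes squalene epoxidase. Sqle levels in the WT, in CPM, were 96.1, 72.2, 55.1, 123 and 45.5 in sham, 53.8, 48.4 and 38.2 at 6 h, 112, 82.4 and 35.4 at 24 h, 69.9, 64.5, 290 and 57.7 at 48 h, and 82.5, 66.1 and 55 at 7 d. KO levels of Sqle were, in CPM, 74.1, 132, 125, 90.6 and 40.9 in sham, 121, 28.7 and 71 at 6 h, 110, 32.2, 27.1 and 17.4 at 24 h, 50.8, 38.9, 53.1 and 26 at 48 h, and 57.1, 104 and 130 at 7 d. At 24 h in the KO, replicate 1 lay inside the sham range and the other three below it. The log2 change there was -1.07 (SE 0.47, adjusted p = 0.0852).

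Lss encodes the cyclase that forms lanosterol. Lss levels in the WT, in CPM, were 70.9, 48.9, 39.9, 109 and 30.7 in sham, 27.9, 25.7 and 28.8 at 6 h, 65.9, 45.1 and 14.4 at 24 h, 37.8, 30.7, 301 and 42.4 at 48 h, and 40.5, 42.3 and 34.4 at 7 d. KO levels of Lss were, in CPM, 33.9, 90, 51.7, 67.6 and 23.2 in sham, 35.6, 24.4 and 27.4 at 6 h, 54.4, 23.2, 11.6 and 14.1 at 24 h, 42.5, 34.9, 41.4 and 20.7 at 48 h, and 34.7, 46.7 and 61.4 at 7 d. WT 48 h replicate 3 was 7.10-fold above the next WT 48 h liver, the widest such gap among the members. The log2 change of Lss at 24 h in the KO was -1.13 (SE 0.52, edgeR adjusted p = 0.1).

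In the steps after lanosterol, Sc5d (chromosome 9, 42251595 to 42264256, minus strand) had the largest fall from sham among the members. Sc5d levels in the WT, in CPM, were 484, 248, 272, 436 and 138 in sham, 110, 124 and 85.3 at 6 h, 208, 152 and 145 at 24 h, 146, 132, 270 and 442 at 48 h, and 386, 336 and 132 at 7 d. KO levels of Sc5d were, in CPM, 369, 440, 480, 622 and 133 in sham, 133, 86.8 and 120 at 6 h, 145, 30.5, 30.2 and 22.3 at 24 h, 308, 274, 196 and 191 at 48 h, and 268, 312 and 332 at 7 d. KO 24 h replicates 2 to 4 lay below every other library, while replicate 1 lay just above the lowest KO sham liver, the one taken at 6 h. The log2 change at 24 h was -2.90 in the KO (SE 0.51, edgeR adjusted p = 1.73e-04) and -0.85 in the WT (SE 0.51, adjusted p = 0.444). The interaction missed the threshold (-2.05, SE 0.69, adjusted p = 0.0573). At 6 h Sc5d also fell in the KO (-1.76, SE 0.54, adjusted p = 0.0446), a call lost when any single library of either group other than the 6 h sham liver was left out.

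Of the other late enzymes, Nsdhl (a sterol dehydrogenase, log2 change -1.11, adjusted p = 0.0462), Ebp (-0.82, adjusted p = 0.0173) and Dhcr7 (-1.75, adjusted p = 0.0132) fell at 24 h in the KO. Each of these calls was lost in 4 to 8 of the 16 alternatives, always including the one without KO sham replicate 2. The demethylase gene Cyp51 (-0.93, adjusted p = 0.0933), the methyl oxidase gene Msmo1 (-0.51, adjusted p = 0.485), the ketoreductase gene Hsd17b7 (0.03, adjusted p = 0.963), Tm7sf2 (-0.35, adjusted p = 0.28) and Lbr (0.47, adjusted p = 0.222) were not called there.

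**Figure D3:**
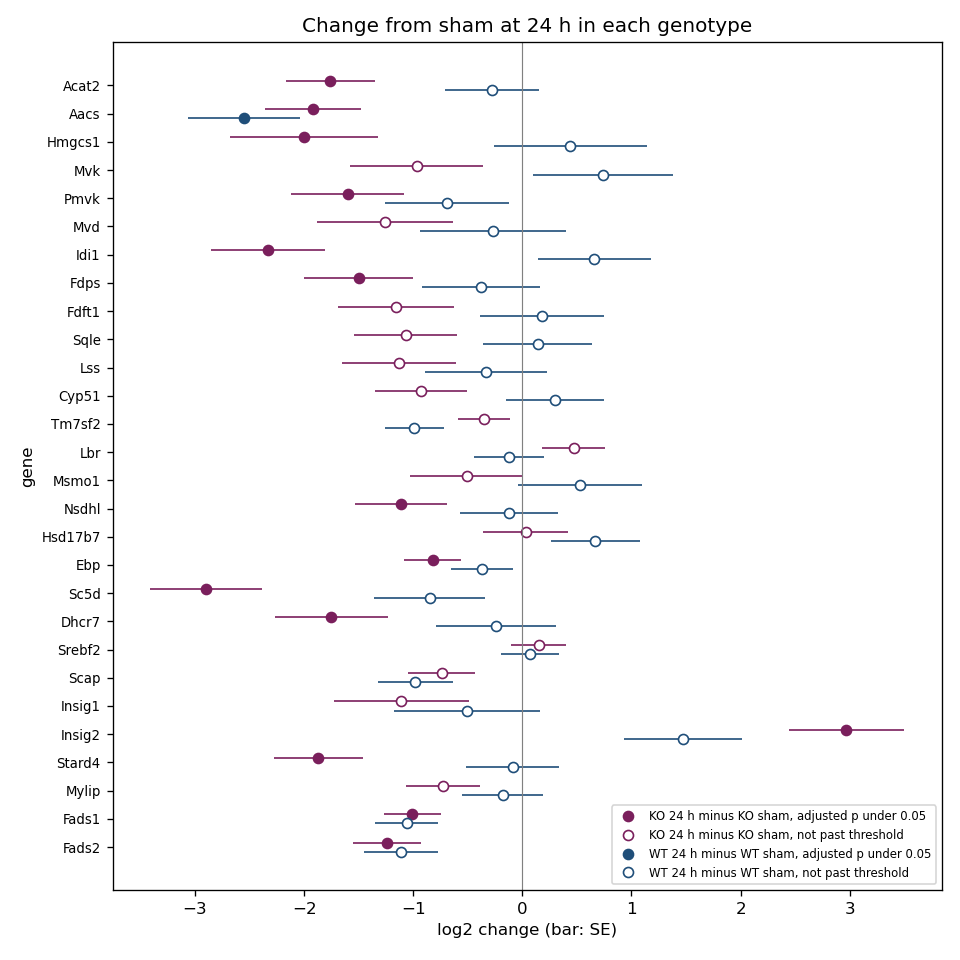
Log2 change from sham at 24 h for the 28 members in the KO (purple) and WT (blue), with bars of 1 SE; filled points passed an adjusted p of 0.05. In the KO 13 filled points lie left of 0 and Insig2 lies at 2.97; in the WT the single filled point is Aacs at -2.55.

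Tm7sf2 and Lbr encode proteins with the same sterol reductase activity, and they moved apart at 48 h in the WT. Tm7sf2 levels in the WT, in CPM, were 124, 185, 100, 210 and 161 in sham, 111, 161 and 120 at 6 h, 105, 79.1 and 50 at 24 h, 49.7, 32.9, 63.2 and 50.7 at 48 h, and 140, 122 and 131 at 7 d. KO levels of Tm7sf2 were, in CPM, 122, 189, 120, 124 and 146 in sham, 128, 97 and 184 at 6 h, 84.2, 87.3, 150 and 118 at 24 h, 90.2, 97.3, 104 and 74 at 48 h, and 98.1, 108 and 135 at 7 d. The 4 WT livers at 48 h all lay below the 5 WT sham livers, as held for 3.94% of all tested genes. They also lay below the 4 KO livers at 48 h, as held for 3.45%. The log2 change at 48 h was -1.66 in the WT (SE 0.25, edgeR adjusted p = 1.60e-04), kept under every alternative, and -0.61 in the KO (SE 0.25, adjusted p = 0.228). The interaction did not pass (1.05, SE 0.34, adjusted p = 0.4). Lbr rose in the WT at 48 h by 0.95 (SE 0.29, adjusted p = 0.0371), from 5.50 to 7.57 CPM in sham to 8.68 to 16.5 CPM, and this call was lost in 8 of 16 alternatives. These were 2 of the 4 members called at 48 h in the WT, where 9 of the 28 had an unadjusted p under 0.05. The other two were Aacs, lower, and Insig2, higher, against a background of 4.68% of all genes higher and 3.62% lower.

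WT 48 h replicate 3 bears on all of the WT 48 h values. It was the highest of the 4 livers for 22 members, more than 2-fold above the next for 16, and the highest of all 37 libraries for 15. These counts were not made over all genes, so a departure of the whole library cannot be told from one of the members. Without WT 48 h replicate 3, 2 of the 28 members passed, both lower. Hmgcs1 stood at 625 CPM in it, against 81.4, 124 and 182 CPM in the other WT 48 h livers.

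Srebf2 itself did not pass in any comparison, including those in which its targets fell. Srebf2 levels in the WT, in CPM, were 53.2, 60.4, 46.8, 66.6 and 52.2 in sham, 51.2, 52.1 and 53.4 at 6 h, 73.2, 69 and 27.1 at 24 h, 62.2, 62.3, 112 and 55.4 at 48 h, and 47.3, 37.6 and 56.1 at 7 d. KO levels of Srebf2 were, in CPM, 44.5, 69.7, 44.9, 49 and 40.8 in sham, 68.8, 47.9 and 64.9 at 6 h, 93.4, 44.2, 46.2 and 42.8 at 24 h, 40.9, 42.3, 48.6 and 26.2 at 48 h, and 46.9, 50.6 and 59.1 at 7 d. At 24 h in the KO, 3 of the 4 livers lay inside the sham range and replicate 1 lay above it. Its log2 change there was 0.15 (SE 0.25, adjusted p = 0.679). Scap, the escort, stood at 71.3 to 103 CPM against 92.5 to 207 CPM in KO sham (log2 change -0.74, SE 0.31, adjusted p = 0.0684).

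Insig2 (chromosome 1, 121304353 to 121332589, minus strand) was the one member that rose in several comparisons. Insig2 levels in the WT, in CPM, were 66.3, 20.6, 34.2, 29.2 and 91.4 in sham, 188, 159 and 497 at 6 h, 110, 115 and 184 at 24 h, 121, 126, 564 and 72.9 at 48 h, and 32.2, 53.9 and 38.8 at 7 d. KO levels of Insig2 were, in CPM, 101, 93.3, 102, 98.6 and 95.6 in sham, 1092, 522 and 646 at 6 h, 147, 1825, 454 and 738 at 24 h, 61.7, 67.4, 64.9 and 47.7 at 48 h, and 34.5, 30.4 and 33.5 at 7 d. At 6 h and at 24 h every hepatectomy liver lay above every sham liver of its genotype. Of all tested genes, this held for 8.15% at 6 h and 3.08% at 24 h in the WT. In the KO it held for 8.43% and 4.59%. At 48 h and 7 d every KO hepatectomy liver lay below every KO sham liver, as held for 2.97% and 1.31% of all tested genes. Neither of these falls was called. The log2 change at 6 h was 2.40 in the WT (SE 0.56, edgeR adjusted p = 0.0094) and 2.78 in the KO (SE 0.57, adjusted p = 0.00297). At 24 h it was 1.47 in the WT (SE 0.54, adjusted p = 0.181) and 2.97 in the KO (SE 0.53, adjusted p = 2.29e-04), and the interaction did not pass (1.5, SE 0.76, adjusted p = 0.204). At 48 h it was 2.35 in the WT (SE 0.53, adjusted p = 0.00569) and -0.78 in the KO (SE 0.52, adjusted p = 0.588). The interaction at 48 h was -3.13 (SE 0.76, unadjusted p = 2.57e-04, adjusted p = 0.167). The WT call at 6 h was lost without WT 6 h replicate 3, and that at 48 h without WT 48 h replicate 3 (log2 change 1.16, adjusted p = 0.116). Both were also lost in males alone and in a fit of the compared groups alone, while the KO calls at 6 h and 24 h were kept under every alternative.

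Insig1, the SREBP-induced partner, did not pass in any comparison. Insig1 levels in the WT, in CPM, were 428, 220, 173, 425 and 87 in sham, 63.6, 68.3 and 223 at 6 h, 235, 140 and 156 at 24 h, 84.9, 86.4, 372 and 278 at 48 h, and 210, 221 and 93 at 7 d. KO levels of Insig1 were, in CPM, 378, 408, 422, 287 and 80.2 in sham, 364, 47.4 and 573 at 6 h, 165, 35.9, 292 and 82.7 at 24 h, 169, 113, 270 and 242 at 48 h, and 202, 301 and 278 at 7 d. Per exon length, the ratio of Insig2 to Insig1 was 0.0612 to 0.176 in the 4 WT sham livers not taken at 6 h and 0.936 in the 6 h one, and 0.204 to 0.306 and 1.06 in the KO sham livers likewise. It was 2.63, 2.07 and 1.98 in WT livers at 6 h, 2.67, 9.81 and 1.00 in KO livers at 6 h, 0.417, 0.732 and 1.05 in WT livers at 24 h, and 0.793, 45.3, 1.38 and 7.95 in KO livers at 24 h. At 48 h it was 1.27, 1.3, 1.35 and 0.234 in the WT and 0.325, 0.531, 0.214 and 0.176 in the KO. By 7 d it was 0.137 to 0.372 in the WT and 0.0899 to 0.152 in the KO.

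**Figure D4:**
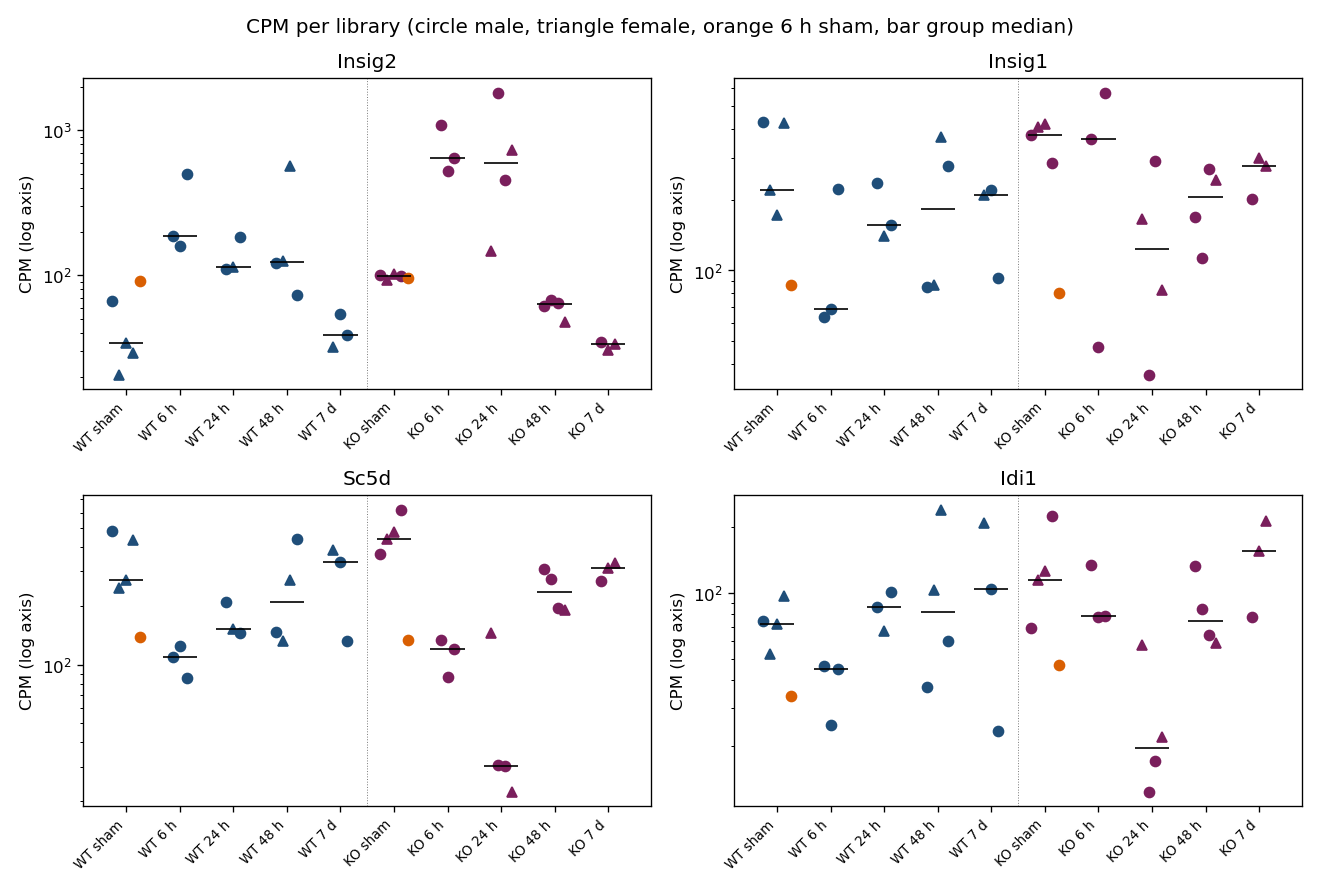
CPM (log axis) of Insig2, Insig1, Sc5d and Idi1 in each library by group; circles are males, triangles females, orange points the 6 h sham livers and bars group medians. Insig2 peaks in KO livers at 6 h and 24 h, up to 1825 CPM, and Sc5d is 22.3 to 30.5 CPM in KO 24 h replicates 2 to 4.

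Of the remaining targets, Stard4, a soluble carrier of cholesterol (chromosome 18), was the most often called. Stard4 levels in the WT, in CPM, were 93.4, 64.8, 76.8, 50.5 and 33.1 in sham, 30.1, 19.3 and 32.5 at 6 h, 54.8, 44.7 and 71.4 at 24 h, 29.5, 53.5, 85 and 60.7 at 48 h, and 100, 87 and 29.3 at 7 d. KO levels of Stard4 were, in CPM, 74.8, 63.1, 94.1, 136 and 42.1 in sham, 74.7, 19.6 and 58.3 at 6 h, 43.3, 11.9, 21.3 and 17.1 at 24 h, 89.5, 72, 72.2 and 63.1 at 48 h, and 71.5, 77.6 and 90.3 at 7 d. At 24 h the 4 KO livers lay below the 3 WT livers, as held for 5.08% of all tested genes. Of these KO livers, 3 lay below all KO sham livers. Its log2 change from sham there was -1.87 in the KO (SE 0.41, edgeR adjusted p = 0.00144) and -0.09 in the WT (SE 0.43, adjusted p = 0.953), with an interaction short of the threshold (-1.78, SE 0.59, adjusted p = 0.0534). Fads1 fell in the KO at 24 h by 1.01 (SE 0.26, adjusted p = 0.00539) and Fads2 by 1.24 (SE 0.31, adjusted p = 0.00423). The changes of these desaturases in the WT at 24 h were of like size and did not pass (-1.06, adjusted p = 0.0668, and -1.11, adjusted p = 0.103). Mylip stood at 2.39 to 3.10 CPM at 24 h in the KO, against 2.73 to 6.81 CPM in sham, and did not pass (log2 change -0.73, adjusted p = 0.105).

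Comparing the genotypes directly at 24 h, 5 members passed. Acat2 (log2 difference, KO minus WT, -1.46, SE 0.44), Idi1 (-1.98, SE 0.55), Sc5d (-1.65, SE 0.53) and Stard4 (-1.37, SE 0.45) were lower in the KO, with adjusted p of 0.0222, 0.0154, 0.0298 and 0.0327. Insig2 was higher (2.54, SE 0.63, adjusted p = 0.00824). The background was 7.50% of all genes lower and 11.1% higher, and the median over the members was -0.89, against -0.03 over all genes. The number called ran from 13 without KO 24 h replicate 1 to 1 without replicate 2, 3 or 4, and was 2 without WT 24 h replicate 1. In a fit of the 7 livers alone it was 0. Marker genes moved here too: 5 of 6 sinusoidal endothelial markers were lower in the KO (all 6 summed, 40.1 to 59.9 CPM, against 70.1 to 155 CPM in the WT). So were 3 of 6 Kupffer cell markers (all 6 summed, 46.6 to 235 CPM, against 154 to 370 CPM). The hepatocyte markers Alb and Tat, 2 of 6, were higher (all 6 summed, 86508 to 147763 CPM, against 38825 to 80221 CPM). So were 2 of 5 cholangiocyte markers, Sox9 and Epcam (all 5 summed, 18.9 to 157 CPM, against 17.6 to 54.8 CPM). No stellate, neutrophil, T or NK cell marker passed, and the part of these shifts in the members' differences was not tested. This comparison shares its KO livers with the one against KO sham, so the pair is not independent.

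At 24 h in the WT, edgeR called 1 member lower, Aacs, against 0.559% of all genes, and 6 of the 28 had an unadjusted p under 0.05. DESeq2 called 4, all lower, and edgeR without the low-count filter called 6 (1 higher, 5 lower), while without WT 24 h replicate 3 edgeR called 0. The median of the members was -0.21, against 0.04 over all genes. WT 24 h replicate 3 was the lowest of its 3 livers for 22 members, a count not made over all genes.

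At 6 h edgeR called 1 member in the WT, Insig2, where 4.16% of all genes rose. DESeq2 called 3 there (1 higher, 2 lower), and edgeR without the low-count filter called 10 (1 higher, 9 lower). In the KO, Insig2 rose and Sc5d fell, against 4.11% and 2.51% of all genes. The WT median was -0.68 with 24 of 28 negative, and the KO median -0.05 with 18 of 28 negative, against medians of 0.02 and 0 over all genes. Of all genes, 48.5% were negative in the WT and 50.3% in the KO. The sham livers taken at 6 h were themselves low. For 17 of the 28 members in each genotype, the 6 h sham liver lay below every other sham liver of that genotype, with a median log2 difference of -0.81 in the WT and -1.07 in the KO. Its values lay inside the range of the 6 h hepatectomy livers for 16 members in the WT and 19 in the KO. These counts were not made over all genes, so they are not shown to be particular to the members. Set against that 1 sham liver, the 6 h hepatectomy mean had a median log2 difference of -0.13 in the WT and 0.37 in the KO, with no test since each is 1 library. Every 6 h hepatectomy liver lay below it for 10 members and above it for 2 in the WT. In the KO these counts were 2 and 7, and none were made over all genes. Insig2 stood at 91.4 CPM (WT) and 95.6 CPM (KO) in the 6 h sham livers. After hepatectomy it stood at 159 to 497 CPM (WT) and 522 to 1092 CPM (KO) at 6 h. Without the 6 h sham livers, 5 members were called in the WT at 6 h, 1 higher and 4 lower. Surgery and hour of sampling cannot be told apart at 6 h on the pooled sham groups. Neutrophil markers moved at 6 h as well, with 3 of 4 tested rising in the WT (summed 25.7 to 63.7 CPM, against 0.715 to 8.85 CPM in sham), and their part in these values was not tested.

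No member was called at 48 h or 7 d in the KO, or at 7 d in the WT. At 48 h in the KO, 26 of 28 log2 changes were negative with a median of -0.37, and 4 had an unadjusted p under 0.05 by edgeR, with 1 member called by DESeq2 and 3% of all genes called by edgeR. KO 48 h replicate 4 was the lowest of its group for 23 members, a count not made over all genes. At 7 d no gene at all was called in either genotype by edgeR (0% of all tested). There 1 member in the WT and 2 in the KO had an unadjusted p under 0.05, as did 950 and 497 of all tested genes. DESeq2 called 0 members in both.

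Between the genotypes, no member was called by edgeR in sham livers (0.276% of all genes called), at 6 h (0.116%), at 48 h (0.341%), at 7 d (0.0450%) or averaged over the stages (2.72%). Members with an unadjusted p under 0.05 numbered 3, 5, 5, 0 and 1 in these, and DESeq2 called 0, 0, 2, 0 and 0. At 6 h 25 of the 28 were higher in the KO, with a median log2 difference of 0.47. Over all genes that median was 0.02, and 47.9% were lower in the KO. KO 6 h replicate 2 was the lowest of its 3 livers for 25 members, a count not made over all genes. The interactions at 6 h, 48 h and 7 d called no member by edgeR and no gene at all (0% each). An unadjusted p under 0.05 was reached by 1, 5 and 0 members, and by 715, 1198 and 347 of all tested genes. DESeq2 called 0, 1 and 0 members. Between the sexes, 23 of 28 members were lower in males, as were 49.1% of all genes. The median log2 difference of the members was -0.42, against 0 over all genes. An unadjusted p under 0.05 was found for 11 members and for 2341 of all tested genes. Of the members 0 passed, while 3.59% of all genes did. DESeq2 called 1. The largest of these differences was that of Mvd (-1, SE 0.36, adjusted p = 0.135).

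Neighbouring pathways were counted at 24 h, on lists that were chosen with earlier results of these data known. Over all genes tested, 12.0% were lower and 15.9% higher in the KO, and 0.559% were lower in the WT, so counts of 1 or 2 in a list of 9 or 10 are near the KO background. Of 9 genes supplying acetyl-CoA and NADPH, 6 fell in the KO, including Idh1 (log2 change -1.24, adjusted p = 6.91e-05) and Acss2, which activates acetate (-3.01, adjusted p = 1.69e-04), and 3 fell in the WT. Of 10 SREBP1 and lipogenesis genes, 4 fell in the KO, with Acacb (-3.12, adjusted p = 4.22e-07) and Elovl6 (-3.39, adjusted p = 2.93e-05) at the smallest p, and 6 fell in the WT. Of 9 efflux and esterification genes, 4 fell in the KO, among them Abcg8, part of the sterol exporter to bile (-1.38, adjusted p = 0.00238), and Npc2, a lysosomal sterol carrier (-0.69, adjusted p = 0.00427), and 1 fell in the WT. Of 9 bile acid synthesis genes, 2 fell in the KO and 1 rose (Akr1d1 -1.45, adjusted p = 0.00534; Amacr 0.91, adjusted p = 0.0109), and 2 fell in the WT. Of 10 genes of the isoprenoid branch, which draws on the same farnesyl diphosphate, 2 rose in the KO and 1 fell, with Nus1 at 1.04 (adjusted p = 0.0104) and Pdss2 at -0.78 (adjusted p = 0.0136), and 0 passed in the WT. Of 10 further genes of SREBP processing and sterol sensing, 1 fell in the KO, Erlin1 (-1.17, adjusted p = 0.0158), and 0 passed in the WT. The median log2 changes of these 6 lists in the KO were -1.14, -1.23, -0.63, -0.42, 0.19 and -0.09, beside -1.11 for the 28 members and -0.01 for all genes. In the WT, in the same order, they were -1.34, -2.24, -0.52, -0.76, 0.22 and -0.01, beside -0.21 for the 28 members and 0.04 for all genes.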

How the data were processed

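RNA of 37 liver samples was sequenced after KAPA stranded mRNA library preparation, per the labels' protocols. The table deposited by the authors holds 1 whole number per gene and library, taken as rounded RSEM expected counts, since the submitters' processing notes name STAR 2.5.3a, RSEM 1.3.0 and GRCm38 without giving their roles. The annotation release, strand setting and filters are not given in the sources used here. Groups and sex came from the labels.

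Counts were tested in R 4.3.3 with edgeR 4.0.16: filterByExpr (15564 genes), TMM scaling, and 1 robust quasi-likelihood fit of 37 libraries with 10 groups and sex (common BCV, the coefficient of variation between libraries, 0.39). P-values were adjusted by Benjamini-Hochberg across the 15564 genes and called at 0.05. SE was taken as the log2 change over the square root of F. The 19 contrasts were 8 of stage against sham, 5 of genotype by stage, 4 interactions (KO change minus WT change), the genotype average and sex. CPM is TMM-scaled, and log2 CPM has a prior count of 2. Gene positions and exon lengths came from GENCODE M21. The fit was also run on simulated data with 200 changed genes, for KO 24 h against sham only. The simulation held no other difference between groups, and its outcome is not given here.

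The members and lists were chosen with earlier results of these data known. All members were named, with every library for Srebf2, Insig1, Insig2 and, per role, the member called most often and that with the smallest p. The alternatives were DESeq2 1.42.0, RLE scaling, no low-count filter, no sex term, the compared groups alone, males alone, no 6 h sham livers, and leaving out each library. The closest replicate pair was checked and was no duplicate. Figures used matplotlib 3.10.9 in Python 3.11.15.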

Additional observations from a re-analysis of the deposited data

Results flagged for a closer look

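Within groups of 4 or 5 livers, 140 combinations of member and group were checked for 1 liver far from the rest, and 16 stood out. Chance alone flags about 5% of such groups, and genes of 1 liver are not independent.

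KO 24 h replicate 1 stood above its group for 5 members. There Hmgcs1 was 157 CPM (next liver 40.6), Mvk 45.7 CPM (next 3.81), Sc5d 145 CPM (next 30.5), Dhcr7 100 CPM (next 22.8) and Srebf2 93.4 CPM (next 46.2). WT 48 h replicate 3 stood above its group for 5 members. There Sqle was 290 CPM (next 69.9), Lss 301 CPM (next 42.4), Cyp51 437 CPM (next 116), Msmo1 475 CPM (next 91.9) and Srebf2 112 CPM (next 62.3).

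The 6 h sham livers stood below their groups, the WT one for Msmo1 (32.4 CPM, next 95.2) and the KO one for Insig1 (80.2 CPM, next 287). KO 48 h replicate 4 stood below its group for Fdps (82.2 CPM, next 206), Msmo1 (32.1 CPM, next 90.8) and Dhcr7 (29.9 CPM, next 81.3). KO 48 h replicate 3 stood above its group for Mvd (15.7 CPM, next 7.22).

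The change of Idi1 from sham at 24 h differed between the genotypes, with an edgeR interaction of -2.99 on the log2 scale (adjusted p = 0.0147, n = 5 sham and 3 WT or 4 KO livers). All 4 KO livers lay below all 3 WT livers at 24 h, as held for 5.08% of all tested genes. The interaction did not pass without WT 24 h replicate 3, without the sex term, or in a fit of the compared groups alone.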

How the results depend on the processing

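Of 28 calls of single members by edgeR, 8 were kept under every alternative run and 0 were reversed. These were Aacs, Acat2, Idi1, Insig2, Sc5d and Stard4 against sham at 24 h in the KO, Insig2 at 6 h in the KO and Tm7sf2 at 48 h in the WT. The cause of the changes in count below was not tested. The share of all genes called under each alternative is not given, so these changes cannot be told from a change in the whole call rate. RLE scaling moved none of these counts by over 1.5 times.

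Without the low-count filter, members called numbered 10, 6 and 8 in the WT at 6 h, 24 h and 48 h, 5, 22, 5 and 1 in the KO at 6 h, 24 h, 48 h and 7 d, 3, 6, 16 and 5 between the genotypes in sham and at 6 h, 24 h and 48 h, 12 and 5 in the interactions at 24 h and 48 h, 6 in the genotype average and 13 between the sexes. In fits of the compared groups alone they numbered 0, 0 and 1 in the WT at 6 h, 24 h and 48 h, 1, 7, 2 and 1 in the KO from 6 h to 7 d, and 0 between the genotypes and in the interaction at 24 h. With DESeq2 they numbered 3, 4 and 8 in the WT at 6 h, 24 h and 48 h, 1 in the KO at 48 h, 2 between the genotypes at 48 h, 3 and 1 in the interactions at 24 h and 48 h, and 1 between the sexes. In males alone they numbered 0, 0 and 2 in the WT at 6 h, 24 h and 48 h, 1 in the KO at 6 h, and 3 in the interaction at 24 h. Without the sex term there were 3 in the WT at 6 h, 3 between the genotypes at 24 h and 0 in the interaction at 24 h, and without the 6 h sham livers 5 in the WT at 6 h.

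Leaving out each library of the compared groups gave 0 to 3 (WT 6 h), 0 to 3 (WT 24 h), 2 to 6 (WT 48 h), 1 to 2 (KO 6 h), 8 to 21 (KO 24 h), 1 to 13 (genotypes at 24 h), 0 to 1 (genotypes at 48 h), 0 to 8 (interaction at 24 h), 0 to 1 (interaction at 48 h), 0 to 1 (genotype average) and 0 to 1 (sexes). Leaving out a library of another group gave 1 to 4 (WT 6 h), 1 to 2 (WT 24 h), 4 to 7 (WT 48 h), 1 to 2 (KO 6 h), 0 to 1 (KO 48 h) and 1 to 3 (interaction at 24 h), and moved no other count by over 1.5 times. No paired analysis was possible because the labels give no replicate numbers, and those used here only name libraries.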
